A study of Mus musculus with 19 samples.

Results

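Day 3 stromal cells of the injured hindlimb were taken as the cell barcodes of the day 3 libraries that held 500 or more genes and no more than 25% mitochondrial transcripts and that carried at least 2 unique molecular identifiers (UMIs, each tagging 1 captured transcript) of Pdgfra, more UMIs of Col1a1 than of Lyz2 and at most 1 UMI of Cdh5. Of 5795 day 3 cells, 683 met this gate (209, 310 and 164 in replicates 1, 2 and 3), out of 39541 cells in the whole series. The same gate, applied per library, gave 615 of 3561 cells at day 0 and 2292 of 13414 cells at day 7, and those cells are the comparison groups. Across all 19 libraries 7022 cells met it. The members were thus chosen by their UMIs of Pdgfra, Col1a1, Lyz2 and Cdh5, and levels of these genes and shares of gated cells are given as a description, with no test.

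The libraries were made from mouse tissue of a model of heterotopic ossification, the growth of bone within soft tissue, in which a burn of 30% of the body surface on the back is combined with transection of the Achilles tendon. Tissue of the tenotomy site was digested with enzymes and the released cells were sequenced with a droplet method, 4 libraries at day 0, 3 at day 3 and 4 at day 7. The labels list the burn for all of these libraries, whereas the paper describes day 0 as without burn or tenotomy. The series names C57 mice and LysmCre/Tgfb1fx/fx mice, in which Cre driven by the myeloid gene Lyz2 deletes Tgfb1, and gives neither genotype to a single library, so that genotype and day cannot be told apart. The study describes its repeated runs as a measure of differences between mice, while no label ties a library to an animal, and p-values measure the spread between these libraries. Libraries of mice treated with the peptide p7N3 were not compared.

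Pdgfra-positive fibroblasts of muscle and tendon sheath build the collagen matrix, and in this model they are among the cells from which cartilage and bone arise. After injury such cells receive interleukin-1, tumour necrosis factor and ligands of Toll-like receptors, which free the transcription factor NF-kB from its inhibitor Nfkbia, and they then secrete chemokines that draw in neutrophils and monocytes. Cxcl1, Cxcl2 and Cxcl5 act on the neutrophil receptor Cxcr2, Ccl2 and Ccl7 act on the monocyte receptor Ccr2, and Il6, Il11 and Lif signal through the shared receptor chain Il6st.

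Bases upstream of 4 genes of this circuit are shown because they hold the letters that NF-kB is known to bind, GGGANNTTCC or GGAANNTCCC on the printed strand, the latter being the former read on the other strand. They come from RefSeq on GRCm38.p6, are the 150 bases before the first listed start of the gene, and are printed 5′ to 3′ on the strand of the gene with the matching letters in capitals. Within 250 upstream bases, 316 of 27025 genes (1.17%) held a match. The neutrophil chemokine list held one in 3 of 5 genes with an entry, the IL-6 family ligands in 1 of 4, the NF-kB list in 1 of 7 and the other chemokines in 1 of 10. Among other genes described below, Lif, Saa3, Lcn2, Cxcl14 and Timp1 held no match there, and Cxcl5, Csf3, Ccl2 and Ccl7 had no entry. A match is a description of letters and no measure of binding. In the first pair, Cxcl1 (chr5:90891095-90891244, plus strand) and Cxcl2 (chr5:90903749-90903898, plus strand), the matches on the 2 strands overlap into a longer run, while Il6 (chr5:30012964-30013113, plus strand) and Nfkbia (chr12:55492648-55492797, minus strand) hold a single match each. The positions given with the values below are those of GENCODE, which starts Cxcl1 and Cxcl2 before the RefSeq start, so that the last of their printed bases lie within the GENCODE gene.

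Cxcl1: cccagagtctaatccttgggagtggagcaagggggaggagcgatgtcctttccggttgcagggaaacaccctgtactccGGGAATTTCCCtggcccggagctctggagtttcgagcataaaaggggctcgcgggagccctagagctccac

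Cxcl2: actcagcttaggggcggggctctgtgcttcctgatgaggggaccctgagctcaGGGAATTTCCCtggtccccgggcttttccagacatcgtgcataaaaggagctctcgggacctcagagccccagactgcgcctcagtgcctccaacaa

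Il6: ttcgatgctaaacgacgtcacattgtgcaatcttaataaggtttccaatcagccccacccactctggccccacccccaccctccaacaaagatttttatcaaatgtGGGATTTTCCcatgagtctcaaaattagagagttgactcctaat

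Nfkbia: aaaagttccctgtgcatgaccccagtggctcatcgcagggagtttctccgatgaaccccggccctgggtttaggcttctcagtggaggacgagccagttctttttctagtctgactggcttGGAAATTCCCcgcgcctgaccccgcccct

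Stromal cells were 11.6% ± 2.55 (SD, n = 3) of the cells at day 3, 10.6%, 14.5% and 9.70% in the 3 libraries, and 16.9% ± 3.25 (n = 4, 14.4% to 21.5%) at day 0 and 17.2% ± 2.43 (n = 4, 13.8% to 19.6%) at day 7. By this gate, without thinning of cells, their shares overlapped those of day 0 and day 7 only in replicate 2. Day 3 stromal cells were the deepest, with a median of 37610, 33932.5 and 41879 UMIs per cell in replicates 1, 2 and 3, against 4706 to 6831 for day 0 and 11337 to 20769.5 for day 7, and no library of day 3 overlapped the other days. Within a library they held 3.78 ± 0.467 times the median UMIs of the other cells at day 3, 1.56 ± 0.13 times at day 0 and 2.24 ± 0.442 times at day 7, so that 28.7% ± 3.26 of all day 3 UMIs were theirs. A gate that asks for 2 UMIs passes more easily in deep cells. When cells were thinned to 3000 UMIs before gating, the Pdgfra limit was set at 1 UMI and the other limits were kept. By this thinned gate 274 of all 5795 day 3 cells passed, 4.66% ± 0.972. Shallower cells were left out of this count, so that it held 597 of 2345 cells at day 0 (24.7%) and 1638 of 13098 at day 7 (12.5%), and the day 0 share has a smaller denominator than the 3561 cells above.

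**Figure D1:**
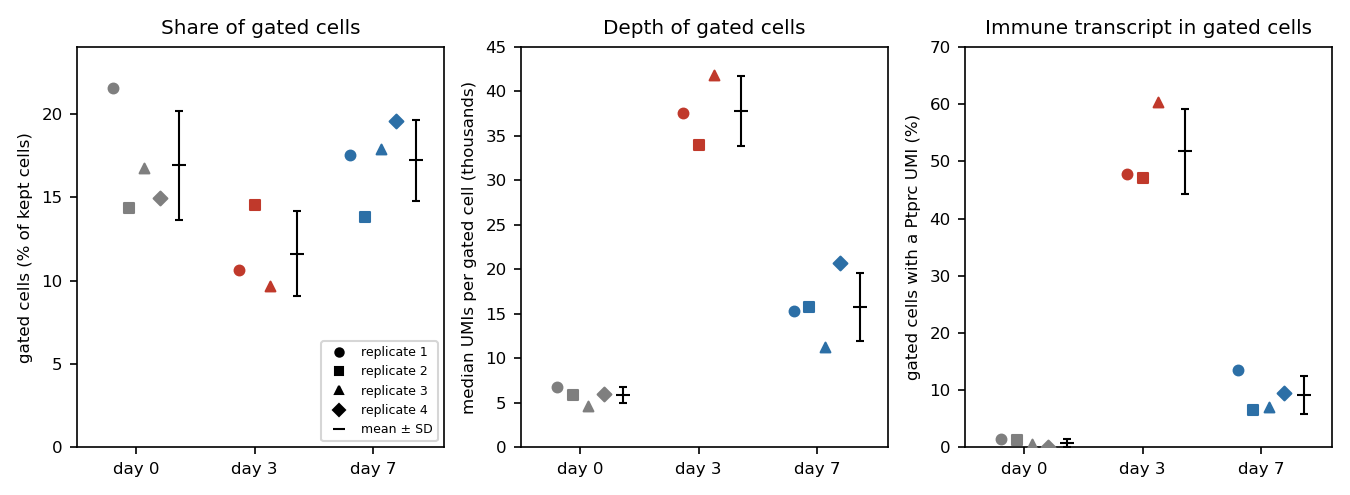
Share of kept cells that met the stromal gate (left, percent), median UMIs per stromal cell (middle) and share of stromal cells with a UMI of the leukocyte gene Ptprc (right, percent) in each library of day 0, day 3 and day 7. Points are libraries with a symbol for each replicate and bars are mean ± SD. Day 3 stromal cells sit at medians of 33932.5 to 41879 UMIs, above all libraries of the other days. Their shares, without thinning of cells, overlap those of the other days only in replicate 2.

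The identity of the cells was checked against markers outside the gate. Of 6 pan-stromal markers tested, the fibrillar collagen genes Col1a2 and Col3a1, the proteoglycan genes Dcn and Lum and the surface marker genes Pdgfrb and Thy1, all were present at day 3. They summed to 19518, 23136 and 18536 CPM (UMIs scaled to a common library size with TMM factors) in replicates 1, 2 and 3, 33362 to 40216 at day 0 and 30108 to 40632 at day 7. Endothelial markers other than Cdh5 summed to 27.5, 27.4 and 28.1 CPM at day 3, against 105 to 184 in day 0 libraries and 23.5 to 50.4 in those of day 7. Mural markers such as Rgs5 summed to 23.7, 32.7 and 32.1 CPM, against 45.0 to 75.7 and 34.1 to 49.9, and 7 muscle markers to 9.68, 19.3 and 20.1 CPM, against 49.0 to 105 and 22.6 to 55.4. By their means all 3 lists were highest at day 0. Of the muscle markers Des, the filament protein desmin, was the most abundant at day 3 and Myod1 was at 0 UMIs. Of the 2 further genes given as markers of these cells, Cxcl5 had a UMI in 91.7% of them and Il6 in 69.6%, shares set beside depth below. At the edge of the gate, 68 cells carried exactly 2 UMIs of Pdgfra, at 831 CPM, here without TMM factors, of Cxcl5 and 9376 CPM of Col3a1, and 69 day 3 cells that met the other limits carried exactly 1, at 823 and 9921 CPM. Further from the edge, Cxcl5 was at 1241 CPM in the 615 cells with more than 2 and at 341 CPM in 117 cells with none. Of 722 day 3 cells with at least 2 Pdgfra UMIs, 25 fell short on Col1a1 and 14 exceeded the Cdh5 limit, and 6 stromal cells lay within 2 UMIs of the Col1a1 limit. The libraries shared at most 1.26% of the barcodes of the smaller of a pair.

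Transcripts of leukocytes were present in the day 3 stromal cells. A UMI of Ptprc was found in 47.8%, 47.1% and 60.4% of them in replicates 1, 2 and 3, a mean of 51.8% ± 7.45 (n = 3), and in 0.787% ± 0.641 (n = 4) of stromal cells at day 0 and 9.15% ± 3.26 (n = 4) at day 7. Lyz2, the lysozyme gene of myeloid cells and part of the gate, had 857, 988 and 924 CPM without TMM factors in stromal cells of the 3 libraries and 11456, 12340 and 12882 on the same scale in their immune cells. These immune cells were the 4025 other day 3 cells with more Lyz2 than Col1a1 and at least 1 Ptprc UMI. If all Lyz2 in the stromal cells had come from such cells, immune transcripts made up 7.48%, 8.01% and 7.17% of their UMIs at day 3, 0.249% to 0.414% in day 0 libraries and 1.08% to 2.09% in those of day 7. Stromal cells without any Ptprc UMI were 5.69% of the day 3 cells. For named mediators and receptors that rose, the ratio of the level in stromal to that in immune cells of the same libraries is given, without TMM factors, where immune cells had the higher level. Each comparison was also repeated after the expected immune UMIs were subtracted, a step chosen after the data were seen. It is scaled to Lyz2, which is part of the gate and of the choice of immune cells, so its values are a description and support no call.

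UMIs were summed over the stromal cells of each library, and the sums were compared between days by edgeR's quasi-likelihood test with Benjamini-Hochberg adjustment. A gene passed at an adjusted p under 0.05, and all adjusted p below are from this test. A library's sum was 6682272 to 10947273 UMIs for day 3, 512841 to 1465610 for day 0 and 8508843 to 12302754 for day 7, so day 0 was the least precise. The genes of the gate were left out. Of 13081 genes tested, 7227 (55.2%) differed between day 3 and day 0, 3797 (29.0%) higher and 3430 (26.2%) lower at day 3, and 2176 and 2084 of these by at least 2-fold. Between day 3 and day 7, 4647 (35.5%) differed, 2309 (17.7%) higher and 2338 (17.9%) lower at day 3, and 691 and 895 by at least 2-fold. Counts of list members below stand beside these shares of all genes. The median log2 fold change of all genes was 0.04 against day 0 and -0.02 against day 7. Both comparisons use the same 3 day 3 libraries and are not independent of each other. Levels are in CPM of UMIs, which are not divided by transcript length and compare a gene with itself between samples.

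Chemokines that attract neutrophils were the first group examined. All 5 members tested of the 6 chemokines with the ELR motif rose from day 0 (median log2 fold change 8.60, or 4.09 when the 2 members without a day 0 UMI were set at their lower bound), and their summed level was 3980.5, 3217 and 4871 CPM at day 3 against 506 to 1098 in day 0 libraries and 1292 to 2135 in those of day 7. Against day 7, 2 were higher, none lower, and the median was 0.99. After subtraction of the expected immune UMIs 4 rose from day 0, since Ppbp, a platelet chemokine at 0.112 times the immune level, no longer passed.

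Cxcl5 (ENSMUSG00000029371, chr5:90759360-90761624), one of the genes given as markers of these cells, had 1443, 777 and 1917 CPM at day 3. At day 0 it had 0, 0, 0 and 6.23 CPM, from 5 UMIs in a single library, and at day 7 it had 470.5, 1229.8, 545 and 941 CPM. Day 3 thus lay above all day 0 libraries and overlapped day 7. The log2 fold change was 10.00 (standard error (SE) 0.64, adjusted p = 7.57e-09, edgeR) against day 0 and 0.78 (SE 0.33, adjusted p = 0.0763) against day 7. Without day 0 replicate 4, the one with UMIs, the first was 16.15, a fitted value against no UMI that is no bound. The second passed in 6 of 20 alternatives, the subtraction of expected immune UMIs among them, and not in the others. Its level in stromal cells was 25.3 times that in immune cells, and stromal cells held 83.3% ± 0.786 (n = 3) of all day 3 Cxcl5 UMIs, next to 28.7% of the UMIs of all genes. Cxcl5 is close kin to Cxcl1, Cxcl2 and Cxcl3 within a cluster on chromosome 5, and reads shared between such copies could not be told apart.

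Cxcl1 (ENSMUSG00000029380, chr5:90891241-90893115), whose upstream bases are printed above, was already abundant at day 0, with 1029, 486, 479 and 638 CPM, and reached 1719, 1631 and 1730.4 CPM at day 3. At day 7 it was back to 635, 704, 851 and 709.5 CPM, so that day 3 stood above every library of both other days. The log2 fold changes were 1.35 (SE 0.20, adjusted p = 3.69e-05, edgeR) and 1.21 (SE 0.20, adjusted p = 0.000269). Stromal cells held 57.5% of its day 3 UMIs.

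Cxcl2 (ENSMUSG00000058427, chr5:90903871-90905938) had 766, 772 and 1106 CPM at day 3, 26.3 to 75.2 CPM at day 0 and 123 to 204 CPM at day 7. It was higher than at both days (log2 fold change 4.09, SE 0.27, adjusted p = 9.2e-09, and 2.35, SE 0.23, adjusted p = 2.56e-06, edgeR), but its level was 0.236 times that of the immune cells, and stromal cells held 9.48% of its day 3 UMIs. Cxcl3 had no UMI at day 0 and 47.9, 34.6 and 101 CPM at day 3, at least 77.2-fold above a floor of 3 UMIs over the day 0 sums (0.79 CPM). Its level was 0.372 times that of the immune cells, stromal cells held 14.2% of its day 3 UMIs, and with cells thinned to 3000 UMIs a UMI was found in 10.996% of stromal and 15.8% of immune cells of day 3. It did not pass against day 7 (log2 fold change 0.76, adjusted p = 0.316).

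Among 15 other chemokines tested, 9 rose and 2 fell from day 0 (median 1.41), and 9 were higher and 1 lower than at day 7 (median 0.60). The monocyte attractant gene Ccl2 (ENSMUSG00000035385, chr11:82035571-82037453) had 1614, 1425 and 1379 CPM at day 3, 149 to 337 in day 0 libraries and 218 to 386 in those of day 7, with log2 fold changes of 2.75 (SE 0.25, adjusted p = 2.08e-07, edgeR) and 2.29 (SE 0.23, adjusted p = 3.86e-06). Its neighbour Ccl7 (ENSMUSG00000035373, chr11:82045712-82047525) had 2099, 2283 and 1944 CPM, against 282 to 381 and 522 to 690.2, with log2 fold changes of 2.67 (SE 0.13, adjusted p = 7.42e-10) and 1.74 (SE 0.12, adjusted p = 1.19e-07). For both genes day 3 stood clear of the other days, and stromal cells held 42.1% of the day 3 UMIs of Ccl2 and 42.5% of those of Ccl7.

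Cxcl14 (ENSMUSG00000021508, chr13:56288643-56296551), a chemokine made by many resting epithelial and stromal cells, had 4022, 2783 and 3038 CPM at day 3. It had 1425, 1319, 1264 and 944 CPM at day 0 and fell below that to 538, 277, 730.5 and 365 CPM at day 7. The 3 days did not overlap. The log2 fold changes were 1.41 (SE 0.25, adjusted p = 0.000179, edgeR) against day 0 and 2.77 (SE 0.25, adjusted p = 1.44e-06) against day 7, and stromal cells held 86.3% ± 0.742 of its day 3 UMIs. Cxcl12, which retains haematopoietic and immune cells through Cxcr4, had 1317, 1247 and 1243 CPM and was higher than at day 0 (log2 fold change 1.27, adjusted p = 8.02e-07) and day 7 (0.41, adjusted p = 0.0201, not without day 3 replicate 1, without day 7 replicate 2 or with thinned sums). Ccl20, a ligand of Ccr6, had no UMI at day 0 and 31.0, 13.1 and 17.6 CPM at day 3, at least 26.0-fold above the floor.

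Not every chemokine moved up. Ccl11, the eosinophil attractant eotaxin, was at 935, 752, 686 and 883 CPM at day 0 and at 61.9, 26.9 and 56.2 CPM at day 3, and fell by 4.08 on the log2 scale (adjusted p = 1.35e-07, edgeR). It was at 18.1 to 45.3 CPM at day 7 and did not pass there. Ccl3 and Ccl4, which attract macrophages, were among the members that rose. Their levels were 0.183 and 0.182 times those of the immune cells, and with the expected immune UMIs subtracted the other chemokines counted 8 higher and 3 lower against day 0 and 7 higher and 1 lower against day 7.

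**Figure D2:**
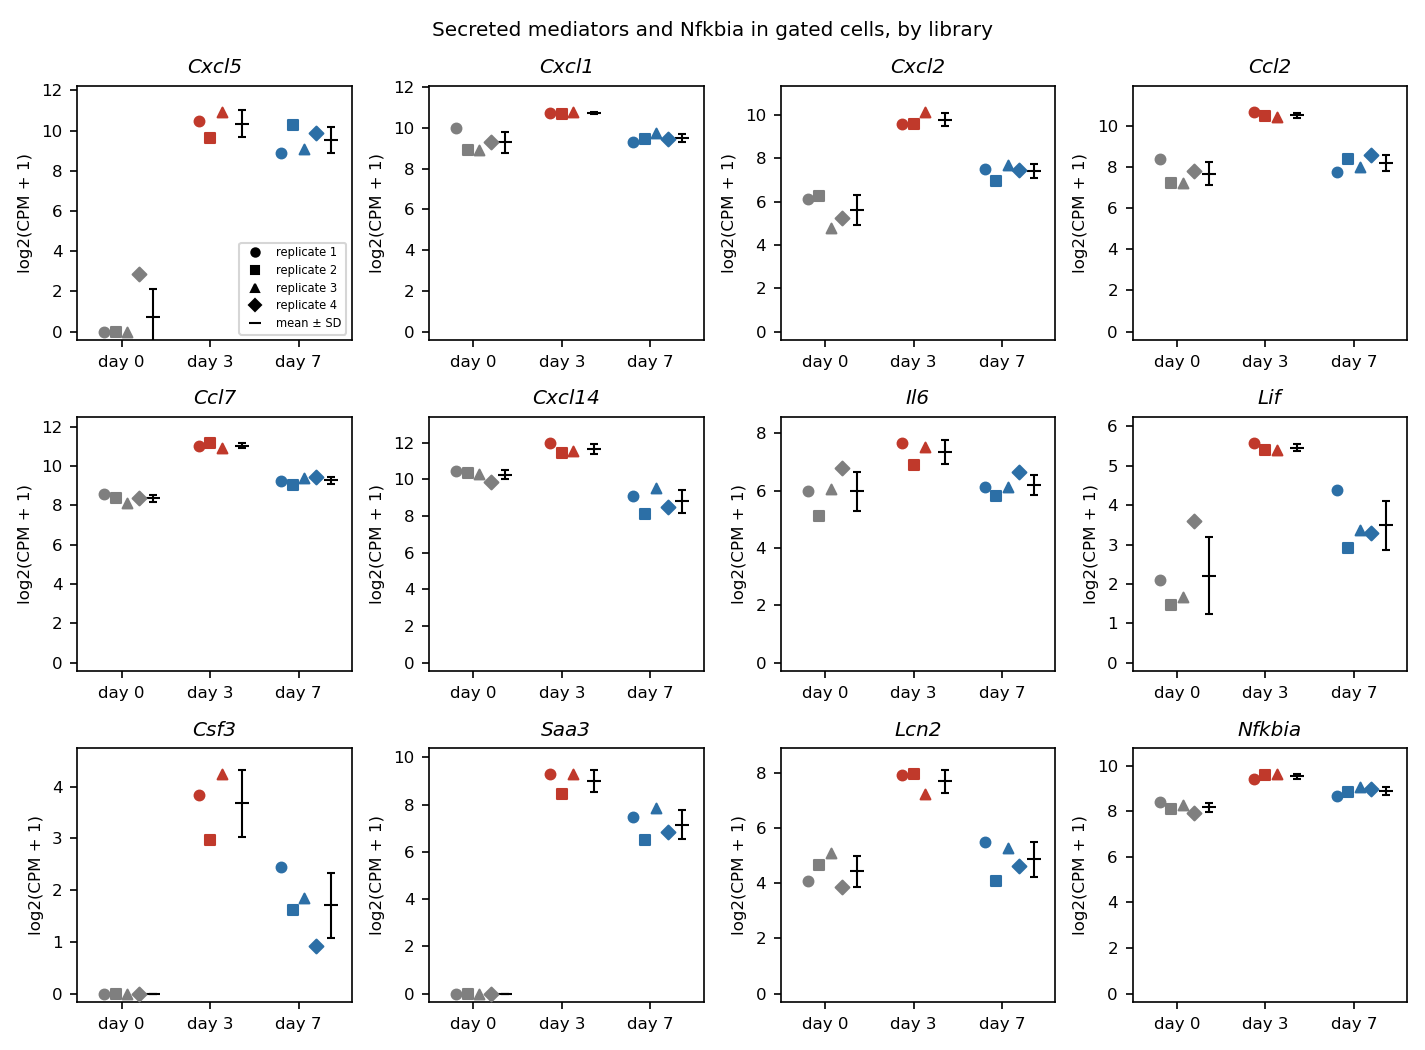
Level in stromal cells of each library of 11 secreted mediators and Nfkbia, as log2(CPM + 1), at day 0, day 3 and day 7. Points are libraries with a symbol for each replicate and bars are mean ± SD of the log2 values. Cxcl1, Ccl2, Ccl7, Cxcl14, Il6, Lif, Saa3 and Lcn2 stand above both other days in all 3 day 3 libraries, while Cxcl5 at day 3 overlaps day 7.

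The ligands of the IL-6 family were higher than at day 0. Of 6 tested, 6 rose from day 0 (median 2.22) and 4 were higher than at day 7 (median 1.23), with none lower in either comparison. Among both counts was Osm, oncostatin M, at 0.0968 times the immune level, of whose day 3 UMIs stromal cells held 4.22%.

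Il6 (ENSMUSG00000025746, chr5:30013114-30019981), the fever and acute phase cytokine and one of the genes given as markers, had 199, 117 and 181 CPM at day 3. It had 62.9, 33.2, 64.7 and 108 CPM at day 0 and 69.3, 55.6, 69.3 and 99.3 CPM at day 7. The lowest day 3 library, replicate 2, was above the highest library of both other days. The log2 fold changes were 1.28 (SE 0.27, adjusted p = 0.000852, edgeR) and 1.16 (SE 0.24, adjusted p = 0.00143), and stromal cells held 61.1% of its day 3 UMIs.

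Lif (ENSMUSG00000034394, chr11:4257557-4272514), named for its effect on leukaemia cells and also a stimulus of bone cells, had 46.6, 41.5 and 41.5 CPM at day 3, 1.75 to 11.2 in day 0 libraries and 6.54 to 19.8 in those of day 7, without overlap. Its log2 fold changes were 3.26 (SE 0.49, adjusted p = 3.76e-05, edgeR) and 1.94 (SE 0.27, adjusted p = 6.57e-05). The first was 3.02 to 4.0 without a library in turn. The second did not pass when the sums were thinned to equal depth (adjusted p = 0.0751). Clcf1, a ligand of the ciliary neurotrophic factor receptor, moved likewise, to 24.5, 20.1 and 19.95 CPM (log2 fold change 1.90, adjusted p = 1.42e-05, against day 0 and 1.01, adjusted p = 0.000133, against day 7, the latter not with thinned sums).

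Il11 rested on 1 library, with 35.6, 5.16 and 5.27 CPM in day 3 replicates 1, 2 and 3, 1.25 to 3.50 CPM at day 0 and 4.23 to 9.07 CPM at day 7. Its log2 fold change against day 0, 2.53 with an SE of 0.95 (adjusted p = 0.0335, edgeR), did not pass with DESeq2, without day 3 replicate 1 or without any of the day 0 replicates. Against day 7 it passed in 7 of 19 alternatives and not otherwise, and its sign turned without replicate 1. On the receiving side, the signal chain Il6st rose (256, 235 and 278 CPM, log2 fold change 0.57, adjusted p = 0.00661, not with thinned sums), whereas 4 of 7 receptors and feedback genes fell from day 0, among them Il6ra (-2.10), Il11ra1 (-1.23) and Socs3 (-0.79). Stat3, the transcription factor of this family, had 120.2, 126 and 124 CPM and did not pass in either comparison.

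Most listed genes of the NF-kB system were higher at day 3. Of 10 subunits and feedback genes, 9 rose from day 0 (median 1.13) and 9 were higher than at day 7 (median 0.68), with none lower. The member Nfkbiz, 0.51 higher than at day 7, did not pass there in 7 of 21 alternatives. Nfkbia (ENSMUSG00000021025, chr12:55489410-55492647), the inhibitor whose upstream bases are printed above, had 683, 763 and 789 CPM at day 3, 240.3 to 334 in day 0 libraries and 409 to 529 in those of day 7, and the days did not overlap. Its log2 fold changes were 1.36 (SE 0.13, adjusted p = 3.19e-07, edgeR) and 0.64 (SE 0.12, adjusted p = 0.000864). Tnfaip3, which ends the signal by editing ubiquitin chains, had log2 fold changes of 2.17 (adjusted p = 2.59e-06) and 0.90 (adjusted p = 0.000586, not with thinned sums), and Nfkb1, the p50 subunit, of 0.62 and 0.93. The subunit gene Rela did not pass (0.01, adjusted p = 0.997, and 0.29, adjusted p = 0.0755). The levels of Nfkbia and Tnfaip3 in stromal cells were 0.431 and 0.380 times those of the immune cells, and stromal cells held 15.9% of the day 3 UMIs of Nfkbia.

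Receptors that feed this system changed unevenly. Of 12 genes of IL-1, TNF and Toll-like receptor signalling, 8 rose and 2 fell from day 0 (median 0.83), and 6 were higher than at day 7 (median 0.38). Of these 6, Tnfrsf1a, a receptor of tumour necrosis factor, did not pass in 10 of 21 alternatives, and Il1r1 did not in 7. Il1r1, the signalling receptor of interleukin-1, had 138, 130.5 and 152 CPM and rose by 0.96 on the log2 scale from day 0 (adjusted p = 0.00122, edgeR). Il1rl1 (ENSMUSG00000026069, chr1:40429570-40465415), the receptor of interleukin-33, had no UMI at day 0, 128, 112 and 169 CPM at day 3 and 40.0, 218, 117 and 140.5 CPM at day 7. It was at least 173-fold above the day 0 floor and overlapped day 7 (log2 fold change 0.07, adjusted p = 0.909). Il33, its ligand, rose to 102, 69.2 and 120.0 CPM (log2 fold change 1.04, adjusted p = 0.000404), and stromal cells held 76.9% of the day 3 UMIs of Il1rl1 and 75.3% of those of Il33. Cd14 and Tlr2, which sense bacterial products, were higher than at both days by log2 fold changes of 4.12 and 2.25 for Cd14 and 3.18 and 2.12 for Tlr2, at 0.116 and 0.132 times the immune level, while the Toll-like receptor genes Tlr3 (-1.24) and Tlr4 (-1.60) fell from day 0.

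Of 8 acute phase and alarmin genes tested, 5 rose and 1 fell from day 0 (median 2.44 in either way of treating members without a day 0 UMI), and 3 were higher and 1 lower than at day 7 (median 1.51). Saa3, an acute phase protein made outside the liver, had no UMI at day 0, 623, 352 and 622 CPM at day 3 and 175, 88.9, 228 and 114 CPM at day 7. It was at least 674-fold above the day 0 floor, and its log2 fold change against day 7 was 1.80 (SE 0.28, adjusted p = 0.000366, edgeR). Lcn2 (ENSMUSG00000026822, chr2:32384633-32388252), which binds bacterial siderophores, had 239.7, 246 and 148 CPM at day 3, 13.7 to 32.9 in day 0 libraries and 16.1 to 43.7 in those of day 7, with log2 fold changes of 3.32 (SE 0.36, adjusted p = 1.34e-06) and 2.79 (SE 0.27, adjusted p = 2.86e-06). Both genes stood clear of the other days. Haptoglobin (Hp), at 0.637 times the immune level, rose from day 0 by 5.74 on the log2 scale and did not pass against day 7 (0.20, adjusted p = 0.544), and complement C3 fell by 3.16 from day 0. Of 9 complement genes, 7 fell from day 0 and 6 were lower than at day 7. After subtraction of the expected immune UMIs these counts were 7 and 3.

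Colony-stimulating factors went in different directions. Csf3 (ENSMUSG00000038067, chr11:98701263-98703629), the growth factor of granulocytes, had no UMI at day 0 and 13.2, 6.81 and 17.9 CPM at day 3, at least 15.99-fold above the floor. Its day 7 level was 0.887 to 4.44 CPM, below all day 3 libraries (log2 fold change 2.32, SE 0.42, adjusted p = 0.000993, edgeR), and stromal cells held 23.8% of its day 3 UMIs, at 0.961 times the immune level. Csf1, the growth factor of macrophages, fell from 139, 117, 118 and 142 CPM at day 0 to 81.4, 77.2 and 84.0 CPM at day 3 (log2 fold change -0.68, adjusted p = 0.000356) and was at 27.6 to 38.9 CPM at day 7, lower still (1.20, adjusted p = 3.35e-06). Of 10 prostaglandin genes 3 rose and 3 fell from day 0, near the 29.0% and 26.2% of all genes, and Ptgs2, the inducible cyclooxygenase, did not pass there (0.33, adjusted p = 0.122). Of 7 hyaluronan genes 3 rose and 1 fell, among them the synthase Has2 (86.2, 75.7 and 74.1 CPM, log2 fold change 1.06, adjusted p = 0.000747) and the receptor Cd44 (2.29, at 0.657 times the immune level).

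The mediators were spread unevenly over the 683 cells. A median cell carried 21 UMIs of Cxcl5 and 48 of Cxcl1, the highest cell carried 720 of Cxcl5, and the top 10% of cells held 45.0% of the Cxcl5 UMIs and 29.0% of the Cxcl1 UMIs. For Il6 the median was 2 UMIs and the top 10% held 55.7%, and for Saa3 these were 2 and 78.3%. Il11 and Csf3 had a median of 0 and 94.1% and 90.8% of their UMIs in the top 10%. Only 13.7% and 14.9% of cells had a UMI of them, so these shares are not ranked against those of other genes. Il11 also rested on replicate 1, as given above. The leukocyte transcript S100a8, by contrast, had a median of 28 UMIs and 23.5% in the top 10%, and Nfkbia 24 and 24.3%.

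Since depth differed, cells were also thinned to 3000 UMIs, which left out 58 stromal cells of day 0, 10 of day 7 and none of day 3. A UMI of Cxcl5 was found in 91.7% of day 3 stromal and 37.7% of day 3 immune cells at median depths of 33932.5 to 41879 UMIs in stromal and 9879 to 10267 UMIs in all other cells of a library, and after thinning in 67.0% and 13.0%. The thinned share was 0.420% at day 0 and 32.9% at day 7 in stromal cells. For Il6 the shares at day 3 were 69.6% in stromal and 10.6% in immune cells, and 27.0% and 3.56% after thinning, against thinned shares of 6.14% at day 0 and 11.2% at day 7. Lif was found in 44.9% of stromal and 4.56% of immune cells, and in 9.49% and 1.35% after thinning. For Csf3 the thinned shares of 2.81% in stromal and 2.64% in immune cells were close, and its share was not told from background at this depth.

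Matrix genes were counted by group. Of 18 genes of resting fibroblasts, 17 fell from day 0 and none rose (median -2.67), and 13 were lower and 1 higher than at day 7 (median -1.09). Gsn, the actin-severing protein gelsolin (ENSMUSG00000026879, chr2:35256380-35307892), was at 32024, 28919, 29984 and 23591 CPM at day 0 and at 986, 1319 and 813 CPM at day 3, a fall of 4.78 on the log2 scale (SE 0.27, adjusted p = 2.66e-09, edgeR). At day 7 it was at 377 to 774 CPM, below day 3 (log2 fold change 0.86, adjusted p = 0.00683, not with the thinned gate, adjusted p = 0.1045). Clec3b, tetranectin (ENSMUSG00000025784, chr9:123150946-123157432), was at 2745, 2897, 3292 and 3431 CPM at day 0, at 47.0, 96.1 and 47.2 CPM at day 3 and at 458, 244, 616 and 208 CPM at day 7, with log2 fold changes of -5.60 (SE 0.40, adjusted p = 2.15e-08) and -2.59 (SE 0.34, adjusted p = 4.37e-05). For both genes no library overlapped between days. Dcn, the collagen-binding proteoglycan decorin, was lowest at day 3 as well (2039, 2610.5 and 1431 CPM), with log2 fold changes of -2.66 and -0.95. Pi16, a marker of adventitial fibroblasts, fell by 3.33, and Myoc, a secreted glycoprotein, went from 984 to 1140.4 CPM at day 0 to 0.523, 5.35 and 1.12 CPM at day 3.

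Collagen chains were lower at day 3 than at day 7. Of 14 collagen chains tested, 3 rose and 8 fell from day 0 (median -0.78), and all 14 were lower than at day 7 (median -1.31). Col1a2 (ENSMUSG00000029661, chr6:4504814-4541544), a chain of type I collagen, had 7069, 8953 and 7368 CPM at day 3 and 7494, 9216, 9122 and 9274 CPM at day 0, which overlap (log2 fold change -0.17, SE 0.12, adjusted p = 0.227, edgeR). At day 7 it had 14759, 13083, 14929 and 11858 CPM, all above day 3 (-0.82, SE 0.12, adjusted p = 8.42e-05). Col3a1, the type III chain, was lower than at both days (-0.51, adjusted p = 0.00167, and -0.75, adjusted p = 0.000205). Col12a1, a collagen of fibril surfaces, was between the days, with 218, 233 and 204 CPM against 16.2 to 31.8 at day 0 and 449 to 720.4 at day 7.

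Enzymes that fold and crosslink collagen were counted apart from the chains. Of 14 collagen processing genes, 9 rose and 1 fell from day 0 (median 1.17), and 5 were higher and 4 lower than at day 7 (median 0.10). Lox, the lysyl oxidase that crosslinks collagen (ENSMUSG00000024529), had 1032, 1281 and 1042 CPM at day 3, 58.5 to 133 in day 0 libraries and 649 to 762 in those of day 7, without overlap, and log2 fold changes of 3.52 (SE 0.18, adjusted p = 1.31e-09, edgeR) and 0.63 (SE 0.16, adjusted p = 0.00675). Serpinh1, the collagen chaperone, rose from day 0 (2155, 2181 and 2354 CPM, log2 fold change 0.92, adjusted p = 1.35e-06) and did not pass against day 7 (-0.03, adjusted p = 0.85). P4hb, a subunit of prolyl 4-hydroxylase, rose likewise by 1.54 (adjusted p = 5.39e-09).

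Proteases and their inhibitors split. Of 21 tested, 10 rose and 10 fell from day 0 (median 0.58), and 6 were higher and 10 lower than at day 7 (median 0.06). Timp1, an inhibitor of metalloproteinases, had 3547, 2695 and 3076 CPM at day 3 against 46.3, 50.7, 35.1 and 39.9 at day 0 and 1413, 1367, 2106 and 1526 at day 7. Every day 3 library lay above every other library (log2 fold change 6.18, SE 0.19, adjusted p = 8.4e-12, and 0.94, SE 0.15, adjusted p = 0.000166, edgeR). Its relatives Timp2 (-1.86 and -1.21) and Timp3 (-3.04 and -1.15) were lower than at both days. Among collagenases, Mmp14, the membrane-bound one (ENSMUSG00000000957, chr14:54431612-54445364), had 105, 119 and 115 CPM, below the 129 to 181 CPM of day 0 (-0.50, adjusted p = 0.00298, and 0.0524 with the thinned gate) and the 398 to 462 CPM of day 7 (-1.96, adjusted p = 5.76e-08). Mmp13, a soluble one, had no UMI at day 0, 16.4, 12.0 and 12.4 CPM at day 3 and 32.3 to 174 CPM at day 7. It was higher than at day 0 (adjusted p = 0.0220, not without day 0 replicate 1, with the thinned gate or without cells with Ptprc) and lower than at day 7 (-2.69, adjusted p = 0.00149, and 0.0825 with a Pdgfra limit of 1 UMI).

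**Figure D3:**
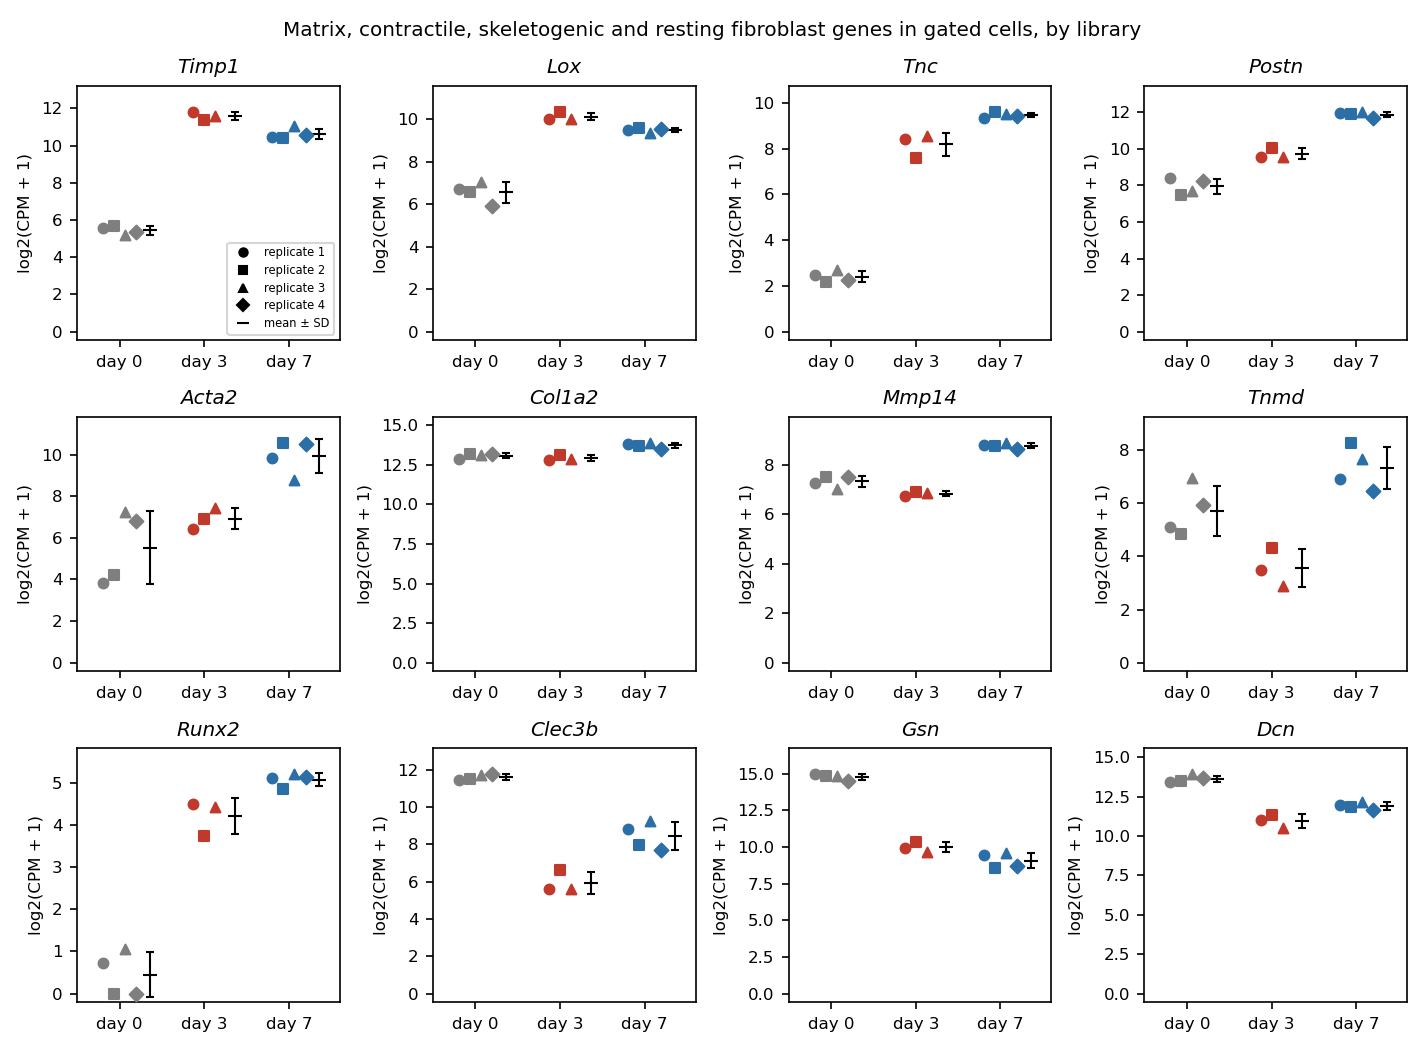
Level in stromal cells of each library of 12 matrix, contractile, tendon, bone and resting fibroblast genes, as log2(CPM + 1), at day 0, day 3 and day 7. Points are libraries with a symbol for each replicate and bars are mean ± SD of the log2 values. Timp1 and Lox are highest at day 3, Tnc, Postn, Mmp14, Acta2, Tnmd and Runx2 are highest at day 7 as group means, and Clec3b, Gsn and Dcn are highest at day 0.

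Matrix genes of healing wounds moved in both directions from day 0, and most were below their day 7 level. Of 13 provisional and matricellular matrix genes, 7 rose and 3 fell from day 0 (median 1.57), and 10 were lower and none higher than at day 7 (median -1.25). Summed over this list, day 3 replicates 1, 2 and 3 had 10069, 12676 and 9873 CPM. Libraries of day 0 spanned 12652 to 15776 CPM, so that only replicate 2 overlapped them and the sum did not rise. Every day 7 library had a higher sum (22396 to 27844 CPM). Tnc, tenascin C of early wounds, had 341, 194 and 369.7 CPM at day 3, 3.50 to 5.48 in day 0 libraries and 653 to 769 in those of day 7, with log2 fold changes of 6.07 (SE 0.28, adjusted p = 4.97e-10, edgeR) and -1.25 (SE 0.17, adjusted p = 5.19e-05). Postn, periostin (ENSMUSG00000027750, chr3:54361109-54391037), had 766, 1069.9 and 754 CPM, 177 to 333 at day 0 and 3258 to 4095 at day 7 (1.75, SE 0.18, adjusted p = 1.12e-06, and -2.14, SE 0.19, adjusted p = 1.15e-06). Both genes thus rose in order of day, without overlap. Cthrc1, a marker of activated fibroblasts, followed the same order (607, 988 and 717 CPM, 6.01 and -1.14), as did Lrrc15 (19.5, 27.8 and 24.1 CPM, against a single UMI at day 0 and 126 to 223 CPM at day 7). Fn1, fibronectin, did not pass against day 0 (-0.22, adjusted p = 0.337) and was lower than at day 7 (-1.27, adjusted p = 0.000127).

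Contractile genes of myofibroblasts were lower at day 3 than at day 7 in 9 of 11 (median -2.004) and higher in none, while 5 rose and 1 fell from day 0 (median 0.59). Acta2, smooth muscle actin (ENSMUSG00000035783, chr19:34241090-34255590), had 85.0, 119.6 and 171 CPM at day 3, 13.2, 17.5, 152 and 111 CPM at day 0 and 909, 1487, 443 and 1448 CPM at day 7. Day 3 overlapped day 0 (log2 fold change 0.78, SE 0.57, adjusted p = 0.259, edgeR) and lay below all of day 7 (-3.11, SE 0.56, adjusted p = 0.000598). Tagln, transgelin, was at 14.5, 33.8 and 44.4 CPM, with -0.91 (adjusted p = 0.202) and -3.92 (adjusted p = 9.31e-05). Those that rose from day 0 were Tpm1, Tpm2 and Tpm4, which code for tropomyosins, Cnn2, a calponin, and Cyr61, a matricellular protein whose rise did not pass in 9 of the alternatives.

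Cells at day 3 expressed genes of division. Of 20 cell cycle genes, 19 rose from day 0 (median 5.14) and 15 were higher than at day 7 (median 0.68), with none lower in either. Mki67, a marker of cycling cells (ENSMUSG00000031004, chr7:135689784-135716361), had 43.6, 47.7 and 44.5 CPM at day 3, 0 to 1.99 in day 0 libraries and 19.2 to 34.7 in those of day 7 (log2 fold change 5.09, SE 0.41, adjusted p = 7.52e-08, and 0.88, SE 0.17, adjusted p = 0.000794, edgeR). Top2a, the topoisomerase of dividing cells, had no UMI at day 0 and 95.3, 87.8 and 84.1 CPM at day 3, at least 113-fold above the floor, and was above the 39.2 to 62.9 CPM of day 7 (0.77, adjusted p = 0.00114). A Mki67 UMI was found in 47.9% of stromal and 10.3% of immune cells of day 3, and in 11.02% and 3.41% after thinning, against thinned stromal shares of 0.364% at day 0 and 4.70% at day 7. Of 11 genes of growth and ribosome production, 9 rose and 1 fell from day 0 (median 1.34), and 9 were higher than at day 7 (median 0.74). Npm1, the nucleolar protein nucleophosmin, had 1420.4, 1020.3 and 1314 CPM (2.15, adjusted p = 5.47e-09, and 0.73, adjusted p = 0.000424). Myc was the member that fell from day 0 (-0.61, adjusted p = 0.0436). After subtraction of the expected immune UMIs, 9 members rose and 0 fell from day 0, and 11 were higher than at day 7.

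Of 24 glycolysis and hypoxia genes, 17 rose and 4 fell from day 0 (median 1.59), and 6 were higher than at day 7 (median 0.26). Gapdh had 2181, 1895 and 2186 CPM against 250.1 to 333 at day 0 and 949 to 1704 at day 7, above both (log2 fold change 2.82, adjusted p = 8.17e-09, and 0.65, adjusted p = 0.0078, edgeR). Pgk1 rose by 3.17 from day 0 and was 1.49 higher than at day 7 (adjusted p = 0.000182). Hif1a, the hypoxia factor, rose by 2.70 from day 0 (adjusted p = 9.57e-10) and did not pass against day 7 (-0.05, adjusted p = 0.776), while Vegfa, the angiogenic factor, was among those that fell, from 52.5 to 71.0 CPM at day 0 to 31.1, 25.4 and 34.3 CPM (-1.08, adjusted p = 2.67e-05). Of 15 protein folding genes, 8 rose and 2 fell from day 0 (median 0.55) and 6 were higher than at day 7 (median 0.39), such as Calr, the chaperone calreticulin (1.53 and 0.59).

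Of 14 genes of cartilage, bone and tendon tested, 2 rose and 2 fell from day 0 (median 0.30, or 0.24 with members without a day 0 UMI at their bound), and 7 were lower and none higher than at day 7 (median -0.81). Of all genes tested, 29.0% rose and 26.2% fell from day 0. Runx2, the regulator of bone formation, had 21.5, 12.3 and 20.4 CPM at day 3, 0.662, 0, 1.10 and 0 at day 0, from 2 UMIs, and 33.3, 28.0, 35.7 and 34.0 at day 7. The days did not overlap (adjusted p = 1.91e-06 against day 0, and log2 fold change -0.89, SE 0.17, adjusted p = 0.00101, against day 7, edgeR). Acan, the cartilage proteoglycan aggrecan, had no UMI at day 0 and 15.7, 23.5 and 11.2 CPM at day 3, at least 21.3-fold above the floor, and lay below the 73.0 to 138 CPM of day 7 (-2.70, adjusted p = 1.02e-05). Sox9, the cartilage regulator, had 44.9, 41.7 and 31.6 CPM, did not pass against day 0 (0.47, adjusted p = 0.086, but passed in 5 of 21 alternatives) and was below day 7 (-0.81, adjusted p = 0.00166). Tnmd, a tendon marker, was lowest at day 3 (10.1, 18.97 and 6.38 CPM), with -2.32 (adjusted p = 0.00179) and -3.87 (adjusted p = 3.17e-05), whereas Scx, the tendon regulator, did not pass against day 0 (1.94, adjusted p = 0.0819), but passed in 5 of 20 alternatives and was 4.30 without day 0 replicate 1 and 1.19 without day 3 replicate 2.

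Signals that drive bone and matrix were also described. Of all genes tested, 29.0% rose and 26.2% fell from day 0, and 17.7% were higher and 17.9% lower than at day 7. Of 12 bone morphogenetic protein (BMP) ligands, antagonists and Id targets, 8 fell and none rose from day 0 (median -1.62), and 2 were higher and 3 lower than at day 7 (median -0.26). The BMP counts against day 7 were near the shares of all genes. Bmp4 went from 84.7, 42.0, 81.1 and 31.1 CPM at day 0 to 2.49, 3.31 and 3.19 CPM at day 3 (-4.37, adjusted p = 8.83e-08, edgeR). Id1, a target of BMP signals (ENSMUSG00000042745, chr2:152736251-152737410), fell from 36.1 to 58.1 CPM to 15.05, 11.3 and 14.8 CPM (-1.83, adjusted p = 5.4e-07), and its higher level than at day 7 (1.11) was lost with thinned sums (adjusted p = 0.6128). Of 13 genes of TGF-beta and activin, 3 rose and 7 fell from day 0 (median -0.54), and 3 were higher and 4 lower than at day 7 (median -0.10). In both comparisons the count of higher members was near the share of all genes. Ltbp2, which binds fibrillin (ENSMUSG00000002020, chr12:84783212-84876532), had 109.8, 106 and 92.3 CPM, above day 0 (4.21, adjusted p = 1.47e-08) and day 7 (1.08, adjusted p = 0.000132), and the feedback gene Smad7 had 54.2, 67.8 and 58.1 CPM (1.41, adjusted p = 3.5e-06, and 0.94, adjusted p = 3.33e-05). The ligand Tgfb2 was lowest at day 3 (27.9, 35.0 and 27.5 CPM, -1.83 and -1.12). Among 16 growth factors, 8 rose and 3 fell from day 0 (median 0.60), and 3 were higher and 8 lower than at day 7 (median -0.55). Igf2 was lower than at day 7 (-3.87, adjusted p = 5.1e-06).

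**Figure D4:**
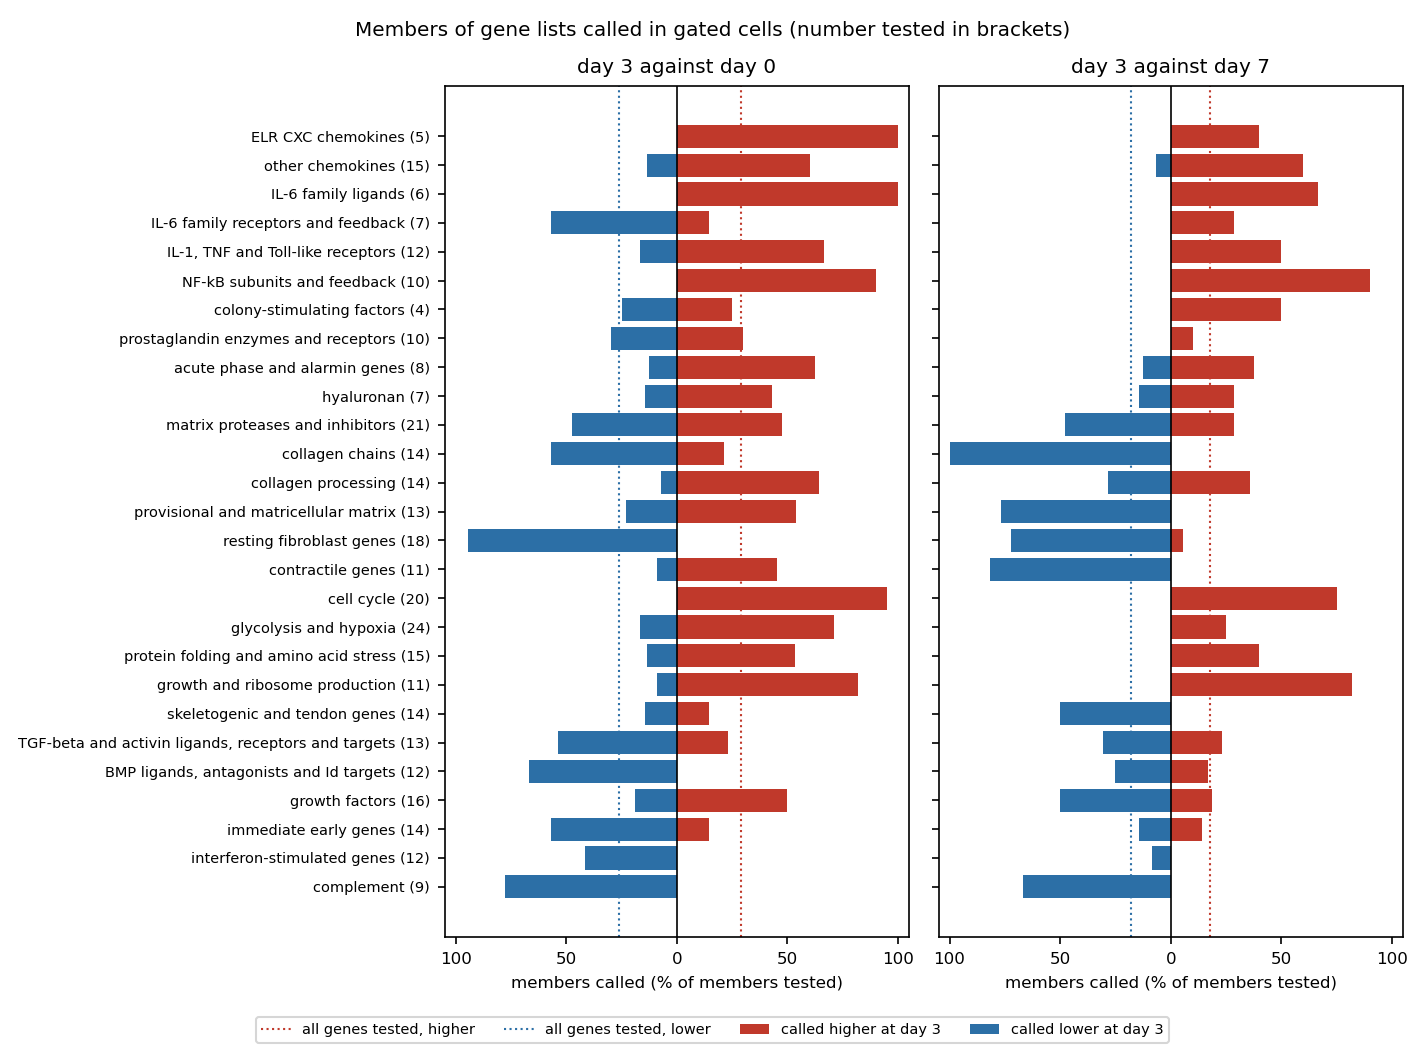
Percent of the members tested of 27 gene lists that were called higher (red, right) or lower (blue, left) in day 3 stromal cells than in those of day 0 (left panel) and day 7 (right panel), with the number tested in brackets. Dotted lines mark the percent of all 13081 genes called in each direction. Collagen chains, contractile genes and the provisional matrix lean to lower at day 3 than at day 7, and NF-kB, cell cycle and growth genes to higher against both days.

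Of the genes with the largest changes by the fixed rule, those above day 0 included Saa3, Il1rl1, Top2a, Cdk1, Cxcl5 and Slpi, a protease inhibitor with 457, 439 and 419 CPM against a single day 0 UMI, and Cxcl3, Retnlg and Clec4e, which immune cells carried at a higher level. Slpi was at 0.975 times the immune level. Those furthest below day 0 were Inmt, an amine methyltransferase (129 to 311 CPM at day 0, 0.131, 0.876 and 0.160 CPM at day 3), Stmn4 (68.2 to 144 and 0, 0.292 and 0.479 CPM) and Myoc. Compared with day 7, the genes furthest below were Dlk1, a Notch-like protein of immature mesenchyme, with 1.05, 1.26 and 1.76 CPM against 47.5 to 287 CPM (log2 fold change -6.64, SE 0.64, adjusted p = 2.59e-06, edgeR), C1qtnf3 (-4.95), Actg2 (-4.85), Mdk (-4.36) and Ptn (-4.18). All 10 genes furthest above day 7, from Retnlg, S100a9 and S100a8 to F13a1, had a higher level in immune than in stromal cells of day 3. By a rule chosen after the values were seen, a level in stromal cells of at least 2 times that in immune cells, 222 of the 860 genes that were above day 7 without overlap and reached 50 CPM were kept, and 443 of 1576 against day 0. The largest of these above day 7 were Lcn2, Cxcl14, Aldh1a2, a retinoic acid enzyme (101, 133 and 59.1 CPM), Prg4, the joint lubricant (2261, 4039 and 1309 CPM), and Wisp2. Prg4 was concentrated in the subgroup of 50 cells described below, at 31400 CPM against 959.5 CPM in the other day 3 stromal cells. Slpi was at 3531 and 235 CPM in the same cells. These subgroup values are without TMM factors.

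Leukocyte markers moved with day in the stromal sums, and the values stand here beside the mediators. All 10 macrophage markers tested were higher than at day 0 (median 3.95) and day 7 (median 1.95), and with Lyz2 they summed to 2301, 2580.5 and 2442.5 CPM at day 3, 71.0 to 156 in day 0 libraries and 459 to 713 in those of day 7, Lyz2 being the most abundant at 983 CPM. Of 7 neutrophil markers, 6 were higher than at day 0 (median 7.23, or 6.57 with members at 0 at their bound) and 7 higher than at day 7 (median 3.75), and they summed to 1998, 1707 and 2841 CPM, 6.58 to 28.0 and 69.0 to 248, led by S100a8 at 973 CPM. None of these markers was at 0 UMIs at day 3. After subtraction of the expected immune UMIs, 4 macrophage markers were higher and 1 lower than at day 0 and 5 higher than at day 7, and 6 neutrophil markers were higher than at day 0 and 7 higher than at day 7. Subtraction took 0.309% of the day 3 level of Cxcl5, 0.283% of Cxcl14, 0.752% of Il6, 1.81% of Cxcl1, 4.28% of Ccl2, 17.6% of Nfkbia and 32.5% of Cxcl2. What part immune transcripts have in the changes of genes that immune cells also carry was not tested.

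Within the 683 cells, clustering gave 6 subgroups, which rest on genes and cells also used to form them and are described without a test and with CPM without TMM factors. The largest, of 194 cells, was led by Crabp1, Car4 and Hmga1 and carried the most Acta2 (201.7 CPM) and Cxcl3. A subgroup of 147 cells was led by Tnfsf11, the osteoclast factor RANKL, and Lcn2, with the highest Timp1 (5753 CPM), Cxcl14 (5339 CPM), Tnc (569 CPM) and Il11 (39.3 CPM). A subgroup of 125 cells was led by Pi16, Comp and Thbs4, genes of adventitial and tendon cells, and had the lowest Mki67 (9.96 CPM). In the 87 cells led by Apod, Cxcl13 and Ccl11 the levels of Il6 (315 CPM), Csf3 (42.5 CPM), Cxcl1 (2555 CPM) and Ccl2 (1979 CPM) were highest. The 80 cells led by Cygb, Mfap2 and Mfap4 carried elastic fibre genes and the most Col1a1. The last, of 50 cells, was led by F13a1, Prg4 (31400 CPM against 959.5 in the other cells), Col22a1 and Matn4, with 49.0 CPM of Cxcl5 and 7982 CPM of Fn1, and 34 of its cells came from replicate 2 and 4 from replicate 3.

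Levels of mediators differed between the subgroups, in part through the 50 cells led by F13a1 and Prg4. The highest level was 32.4 times the lowest for Cxcl5, 17.2 times for Cxcl14, 11.1 times for Lif, 8.50 times for Saa3, 8.02 times for Ccl2, 6.84 times for Il6 and 4.91 times for Cxcl1. Over the other 5 subgroups, of 633 cells, it was 2.22 times for Cxcl5, 4.10 times for Cxcl14, 3.11 times for Lif, 2.21 times for Ccl2 and 5.08 times for Il6, and for Saa3 and Cxcl1 it did not move. Over all 6 subgroups this ratio was 1.21 for Lyz2, for S100a9 1.24, for Il1b 1.26, for S100a8 1.28, for Ptprc 1.29 and for Retnlg 1.41. Other mediators had ratios of 1.56 for Csf1, 1.71 for Cxcl2 and 1.84 for Ccl3, and Spp1, the matrix protein osteopontin, had 4.19 at 0.188 times the immune level. All subgroups had cells of all 3 libraries, from 4 to 87 cells each.

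**Figure D5:**
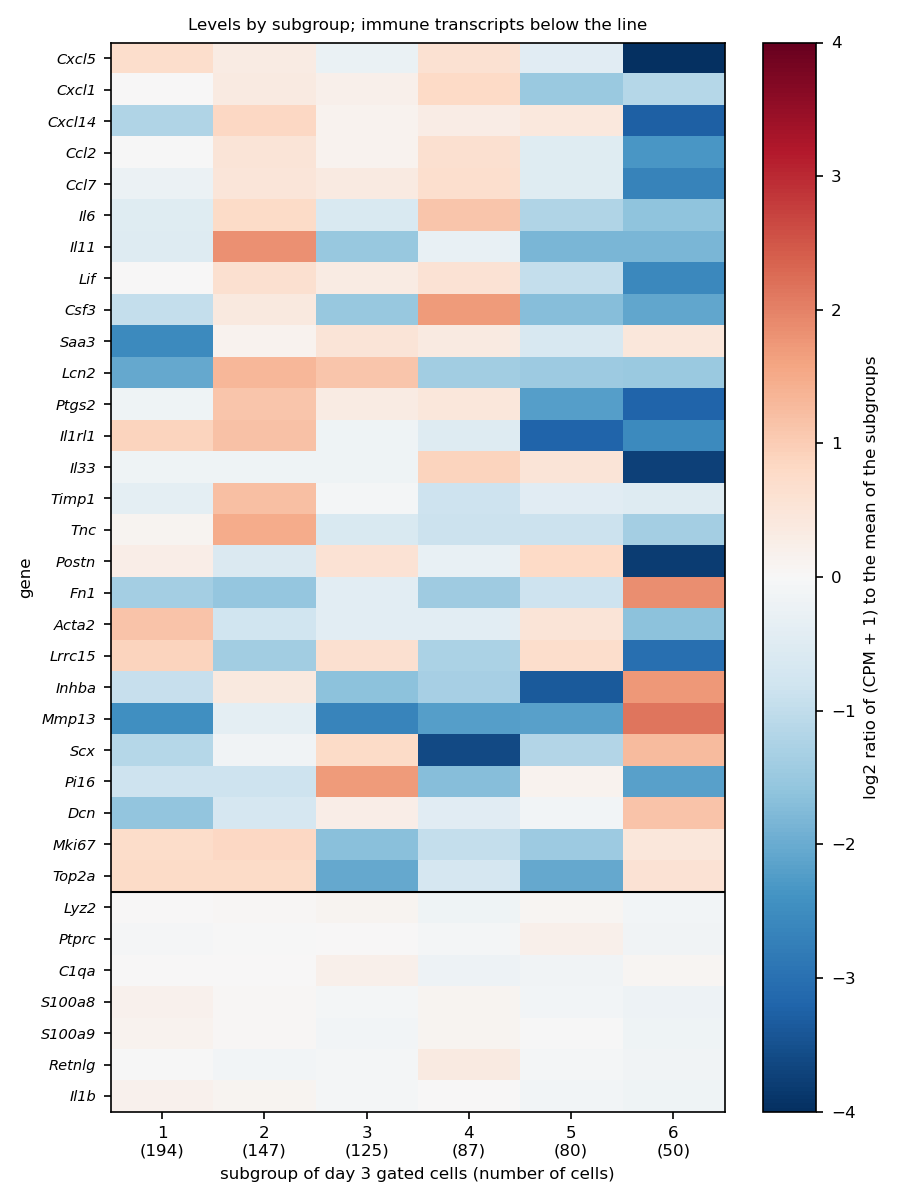
Log2 ratio of the level (CPM + 1) of each gene in a subgroup of day 3 stromal cells to its mean over the 6 subgroups, for 27 stromal genes and, below the line, 7 transcripts of leukocytes, with cell numbers in brackets. Rows of leukocyte transcripts are near 0 in all subgroups (highest over lowest level 1.21 to 1.41), while Cxcl5 ranges from 49.0 CPM in the Prg4 subgroup to 1586 CPM in the largest.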

How the data were processed

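UMI count matrices of 19 droplet libraries with 27998 mouse genes were used as the authors deposited them, raw and not normalized. The submitters' processing notes name Cell Ranger and Seurat without versions and the builds mm10 and GRCh38, and the gene identifiers are mouse. For day 0 replicate 1 the deposited matrix held all 737280 barcodes. Barcodes needed 500 or more genes and mitochondrial UMIs of 25% or less, and were gated as the report states, and their UMIs summed per library. The 11 sums of day 0, day 3 and day 7 entered 1 fit in edgeR 4.0.16 (R 4.3.3) with its filter on low counts, TMM factors and quasi-likelihood tests at an adjusted p of 0.05. CPM are UMIs scaled to a common size of the TMM-adjusted sum, and standard errors were derived from the F statistic. Pdgfra, Col1a1, Lyz2 and Cdh5 were not tested. Floors are 3 UMIs and cover counting error only. Subgroups came from Leiden clustering at a resolution of 0.5 (scanpy 1.11.5, leidenalg 0.10.2, Python 3.11.15). No doublets were removed other than in the Scrublet alternative. Gene positions are those of GENCODE on GRCm38. The pipeline was tested on simulated data.

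The members and the 35 gene lists were chosen with earlier results of these data known. Genes were named when they ranked in the first 10 by change in either direction (passing the test, without overlap of the groups and at 50 CPM or more), when among the 4 list members with the highest day 3 CPM, or when listed by name beforehand. Acan, Bmp4, Ccl11, Ccl20, Ccl4, Cd14, Cnn2, Col12a1, Fosl1, Hif1a, Il6ra, Jun, Lrrc15, Myc, Osm, Pi16, Ppbp, Rela, Smad7, Spp1, Tgfb2, Timp3, Tlr2, Tlr3, Tlr4, Tpm2 and Vegfa lie outside this rule and were chosen after their values were seen. The alternatives were DESeq2 1.42.0, RLE factors, a fit of all genes, a minimum of 10 UMIs per library, only the 2 groups compared in the fit, a replicate block, omission of each library, replicates 1 to 3 only, at most 10% mitochondrial UMIs, at least 1 UMI of Pdgfra, the gate on cells thinned to 3000 UMIs, stromal cells without Ptprc, removal of the top 3.9% of Scrublet scores and sums thinned to the smallest sum. The gate on thinned cells asked for at least 1 UMI of Pdgfra. Subtraction of expected immune UMIs was added after the data were seen, and it is included in the counts of alternatives.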

Additional observations from a re-analysis of the deposited data

Results flagged for a closer look

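In 3 of 72 groups of 4 libraries, a library was far from the others by Dixon's test at the 95% level. Chance gives this in about 1 in 20 groups. The groups were those of day 0 and day 7 for the genes examined most closely and for the share, depth, relative depth and Ptprc share of stromal cells. Cxcl5 at day 0 was at 6.227 CPM in replicate 4 and at 0 in the other libraries. Lif at day 0 was at 11.21 CPM in replicate 4, against 1.75 to 3.31 CPM in the others. Col1a2 at day 0 was at 7494 CPM in replicate 1, below the 9122 to 9274 CPM of the others. The rise of Cxcl5 and of Lif from day 0 passed in every alternative run, those without replicate 4 included.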

How the results depend on the processing

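Against day 0 the number of genes that differed was 5965 to 7811 in the alternatives other than 3846 with at least 10 UMIs in every library and 3447 with sums thinned to the smallest sum, and against day 7 it was 3393 to 5589 other than 2417 and 1234 with the same settings, which test fewer genes or fewer UMIs. Without a library in turn the numbers ranged from 6423 to 7034 and from 3264 to 4395. With DESeq2 they were 7091 and 4660. The replicate block gave 6762 and 3772 genes. Replicate numbers did not pair the libraries (correlations of same-numbered deviations of -0.165 to 0.027 over 10 pairs), so the block shares only a number. The share of day 3 stromal cells was 4.66% with the thinned gate and 5.69% without cells with Ptprc, and 10.2% to 12.6% without a library in turn. Subgroups numbered 4 at a resolution of 0.3 and 12 at 1.0. Of 187 named genes, 145 passed against day 0, 127 of them in every alternative that tested them, and 122 passed against day 7, 88 of them in every such alternative. With at least 10 UMIs in every library 113 of the 187 were tested, and with thinned sums 172. A called gene reversed only once, C1qa against day 0, to -2.24 after subtraction of immune UMIs. Of the genes given as not passing, Ptgs2, Col1a2, Fn1 and Acta2 against day 0 and Stat3 against day 7 passed in 1 of 21 alternatives each and Cxcl3 against day 7 in 2 of 20. Of members counted as lower than at day 7, C3 did not pass in 8 alternatives and Cyr61 in 7.

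Other reversals were of genes that did not pass, and their cause was not tested. Against day 0 the log2 fold change of Actg2 was -1.04 to 6.83 without a library in turn, 6.68 with replicates 1 to 3, 5.77 with the thinned gate and 1.23 without the top Scrublet scores, the setting in which Tagln was 0.35. With the thinned gate Ptn was -0.15, Twist1 -0.17 and Rgs5 0.19, with at least 1 UMI of Pdgfra Ptn was -0.067 and Rgs5 0.54, and with thinned sums Stat3 was -0.012 and Twist1 -0.26. Hspa5 was -0.10 with replicates 1 to 3. After subtraction Col5a2 was 0.10, Col5a1 0.006, Hba-a1 -0.24, Hba-a2 -0.42 and Hbb-bt -1.03. Against day 7, Slpi was -0.36 to 0.28, Il11 -0.23 to 1.74, Il11ra1 -0.22 to 0.04, Socs3 -0.12 to 0.17, Hp -0.049 to 0.44, Isg15 -0.695 to 0.13, S100b -0.93 to 0.14, Hba-a1 -1.10 to 0.17, Hba-a2 -1.21 to 0.18 and Hbb-bt -0.99 to 0.27 without a library in turn. With the thinned gate Slpi was 0.79, Socs3 -0.20, Kitl -0.23, Twist1 -0.012, Egfl7 -0.051, Pecam1 -0.35 and Inhba 0.12. Slpi was 0.40 with at least 1 UMI of Pdgfra, Smpd3 0.32 and Socs3 -0.18 with thinned sums, Id3 0.075 without Ptprc, and after subtraction Serpinh1 was 0.096, Pdgfrb 0.085 and Pecam1 -0.81.

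The gate depends on depth, which was lowest at day 0, and the levels of rare transcripts there are the least precise. Fewer cells carrying a transcript and a lower level in each cell are not separated by sums. Without the top 3.9% of Scrublet doublet scores 7169 and 4606 genes differed from day 0 and day 7. Genotype of the libraries and the source of leukocyte transcripts in the stromal cells were not tested.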

Other observations

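Some lists belong to no comparison above. Of all 13081 genes tested, 29.0% rose and 26.2% fell from day 0, and 17.7% were higher and 17.9% lower than at day 7. Of 14 immediate early genes in the stromal cells, 2 rose and 8 fell from day 0 (median log2 fold change -0.71), and 2 were higher and 2 lower than at day 7 (median -0.02), edgeR's quasi-likelihood test at an adjusted p of 0.05. The counts against day 7 were near the shares of all genes. Fosl1, a partner of Jun in the AP-1 factor, had 43.8, 38.5 and 49.6 CPM at day 3 and was higher than at day 0 (2.46) and day 7 (1.43), whereas Jun itself had 390.1, 466 and 436 CPM and was lower than at both (-1.24 and -0.84). Of 12 interferon-stimulated genes tested, 5 fell from day 0 and none rose (median -0.79), and 1 was lower than at day 7 (median -0.45). After subtraction of the expected immune UMIs, 7 fell from day 0 and 5 were lower than at day 7.

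Of 6 endothelial markers 5 fell from day 0 and 1 was lower than at day 7, of 6 mural markers 3 and 1, of 3 muscle markers 3 and 1, and none rose. Of all genes tested, 26.2% fell from day 0 and 17.9% were lower than at day 7. Among the falls from day 0, Egfl7 did not pass in 8 of 21 alternatives, Abcc9 in 11 of 19 and Des in 5 of 20. Of 3 Schwann cell markers tested 2 fell from day 0 and 1 was higher than at day 7. The 4 haemoglobin genes passed in neither direction in either comparison and summed to 367, 1505 and 1001 CPM in day 3 replicates 1, 2 and 3, so that replicate 1 was the lowest.

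By the same gate stromal cells were 21.7% ± 2.19 (SD, n = 4) of the cells at day 21 and 20.1% ± 3.21 (n = 4) in the libraries of mice given p7N3, of which 3 are labelled day 7 and replicate 4 has no labelled day.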
